A study of Mus musculus with 74 samples.

Results

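The weaker BMAL1 peaks at promoters are the rows of the deposited BMAL1 peak table that lie outside the 500 with the highest peak score and within 1000 bp of an annotated transcription start. They number 5640 of 10368 peaks, or 54.4%, and their nearest genes number 5509. They were selected on the peak score and the distance, which follow from the ChIP signal, so these values are given as a description only. The peaks were called in inguinal white adipose tissue (WAT) of C57BL6J mice at ZT4 from 2 ChIP-seq libraries. Zeitgeber time (ZT) counts hours from lights on. RNA and chromatin accessibility came from other mice, which carried Adiponectin-Cre and NuTRAP, a Cre-dependent allele that tags nuclei and ribosomes with fluorescent proteins. Both readouts are therefore aimed at cells in which the Adiponectin promoter drives Cre. RNA markers of other cell types were still counted, as given later. All RNA and ATAC groups carried both alleles. WAT adipocytes and brown adipose tissue (BAT) adipocytes were sampled at ZT1, ZT5, ZT9, ZT13, ZT17 and ZT21. Ribosome-bound RNA was pulled down with an anti-GFP antibody and sequenced in 18 WAT and 17 BAT libraries, with 3 per time except 2 for BAT at ZT17. ATAC-seq, which marks open chromatin, was done on sorted nuclei in 18 libraries of each depot, 3 per time. The ChIP used whole minced tissue, although its label names white adipocytes. The labels give no sex, age, diet or feeding schedule, and they do not say whether replicates were separate animals. The p-values therefore speak of variation among libraries, which may be technical.

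BMAL1, the product of Arntl, pairs with CLOCK and binds the E-box, a short palindrome that is also the core of sites for USF, MYC and the TFE factors. The pair switches on the genes of its own repressors, the Period, cryptochrome and REV-ERB proteins, which close the loop of the circadian clock, and it drives output genes such as Dbp. In fat the clock is known for its part in the timing of lipid storage and release. BMAL1 binds far more promoters than there are clock genes. Most peaks called here count as weaker because the rank limit on the score is fixed. Their share is therefore set by the rule and is not a finding about binding.

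RNA libraries held 1301522 to 6481154 counts in WAT and 4980147 to 46274438 in BAT. ATAC libraries held 1623006 to 5294923 tags in WAT and 3959384 to 12811242 in BAT. The loci CT010467.1, Gm42418 and Lars2, which collect ribosomal RNA reads, took 5.26% to 66.0% of the RNA counts in WAT and 0.813% to 4.64% in BAT. The 6 adipocyte markers summed to a median of 24538 CPM in WAT and 45660 in BAT. CPM are counts scaled by the library total and by a TMM normalization factor, which was computed within each depot. The 6 fibroblast and preadipocyte markers summed to 141 to 1000 CPM in WAT and 13.4 to 76.8 in BAT, and the 5 lymphocyte markers to 5.44 to 129 CPM in WAT and 0 to 0.791 in BAT. The macrophage list had a median sum of 108 CPM in WAT and 11.6 in BAT, the endothelial list 51.9 and 7.29, and the erythroid list 245 and 94.2. Skeletal muscle markers ran the other way, with a median of 42.1 CPM in WAT (up to 349) and 117 in BAT (up to 732). Their part in the results was not tested. In bulk samples of this kind, fewer cells of a type and less RNA per cell cannot be told apart.

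E-boxes that lie under weaker promoter peaks are shown first. Binding at the single sites was not measured. Each line gives 30 bases 5′ to 3′ on the strand of the gene whose promoter window it is from, taken from RefSeq on GRCm38.p6, with the E-box CACGTG in capitals. They were drawn from the named genes whose peak covers an E-box in the promoter window, and were picked, with their values known, to span the range of scores and the roles described later.
Acvr1b: ctcccgggagctCACGTGccggcgcggagc
Atp6v0b, outer site: gtgcgcgggggtCACGTGgggtcggcgcat
Atp6v0b, inner site: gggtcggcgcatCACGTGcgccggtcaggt
Hspe1 and Hspd1: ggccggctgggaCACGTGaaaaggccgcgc
Ppp1r3c: gagggaccggttCACGTGatctggctttga
Ctsd: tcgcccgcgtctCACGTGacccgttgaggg
Eif1b: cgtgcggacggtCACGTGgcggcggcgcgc
Pfkfb2: ggccaagcgcccCACGTGactcgccccaac
The Acvr1b site (an activin receptor) lies at chr15:101174006-101174035 on the plus strand, under a peak with a score of 14.6, which sits at the upper limit. The Atp6v0b sites lie at chr4:117887348-117887377 and chr4:117887330-117887359 on the minus strand, in the promoter of a subunit of the vacuolar proton pump whose peak scored 13.7. The Hspe1 site lies at chr1:55088306-55088335 on the minus strand, in a promoter shared with Hspd1, under a peak that scored 12.5. Together these genes encode the mitochondrial chaperonin. The Ppp1r3c site lies at chr19:36736691-36736720 on the minus strand (score 11.1), and the Ctsd site, at the gene of the lysosomal protease cathepsin D, at chr7:142387908-142387937 on the minus strand (score 9.41). The Eif1b site lies at chr9:120492570-120492599 on the plus strand (score 7.53), and the Pfkfb2 site at chr1:130715826-130715855 on the minus strand (score 5.31). Each site lies upstream of the start of the gene whose window it is from, with the first base of the E-box between 104 bases before it, at Ppp1r3c, and 18 bases before it, at the inner Atp6v0b site. For Hspe1 that window is the one of Hspd1, and the same site lies downstream of the start of Hspe1 itself.

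The E-box was more frequent at the weaker peaks than at promoters without a peak, and less frequent than at the strongest peaks. The RefSeq windows reach from 250 bases before to 50 bases after a start, and 4301 of them were overlapped by a weaker promoter peak by at least 75 bp. CACGTG, which reads the same on both strands, stood in 683 of them (15.9%). These windows belong to 3512 of the 5640 weaker promoter peaks, of which 578 had CACGTG in a window. Some peaks therefore count more than once, and the sequence under the remaining peaks was not read. It stood in 140 of 279 windows (50.2%) under the strongest 500 peaks at promoters, in 284 of 4760 windows (5.97%) of genes tested in WAT RNA without any peak, and in 7.15% of all 32851 windows. The median base content of the windows was 64.0% G and C at weaker peaks, 67.0% at the strongest peaks and 58.0% without a peak. Weighting the windows without a peak to the G and C content of the weaker peaks left their share at 5.96%. CTCGAG, a palindrome of the same bases that shares no position with CACGTG matches, stood in 7.28% of the windows of weaker peaks, 6.81% of the strongest and 5.17% without a peak. The cAMP response element TGACGTCA, which can share its outer bases with CACGTG, stood in 4.32% of weaker-peak windows, 1.43% of the strongest and 2.69% without a peak. The ETS motif CCGGAAGT, read on both strands, stood in 12.3%, 4.66% and 6.47% of the same windows in that order. These shares are descriptions and were not tested.

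Within the weaker promoter peaks the E-box share followed the score. The windows were split into 5 groups of nearly equal size by score. The share was 31.4% in the highest group (8.9 to 14.6), then 16.3%, 14.5% and 8.95%. It was 8.26% in the lowest (3.25 to 5.14). CTCGAG stayed between 6.63% and 8.02% over the same groups. E-boxes lay near the peak centre. Weaker promoter peaks held 1.23 E-boxes per kb within 25 bp of the centre and 0.146 per kb at 200 to 225 bp, while CTCGAG held 0.274 and 0.130 per kb. At the strongest peaks the density within 25 bp was 6.83 per kb. The lowest score group held 0.349 E-boxes per kb within 25 bp and 0.600 at 25 to 50 bp, from 13 and 22 sites. It held 0.133 at 75 to 100 bp and 0.371 at 200 to 225 bp, from 4 and 5 sites. A window without CACGTG lacks only these letters, which says nothing about the factor.

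**Figure D1:**
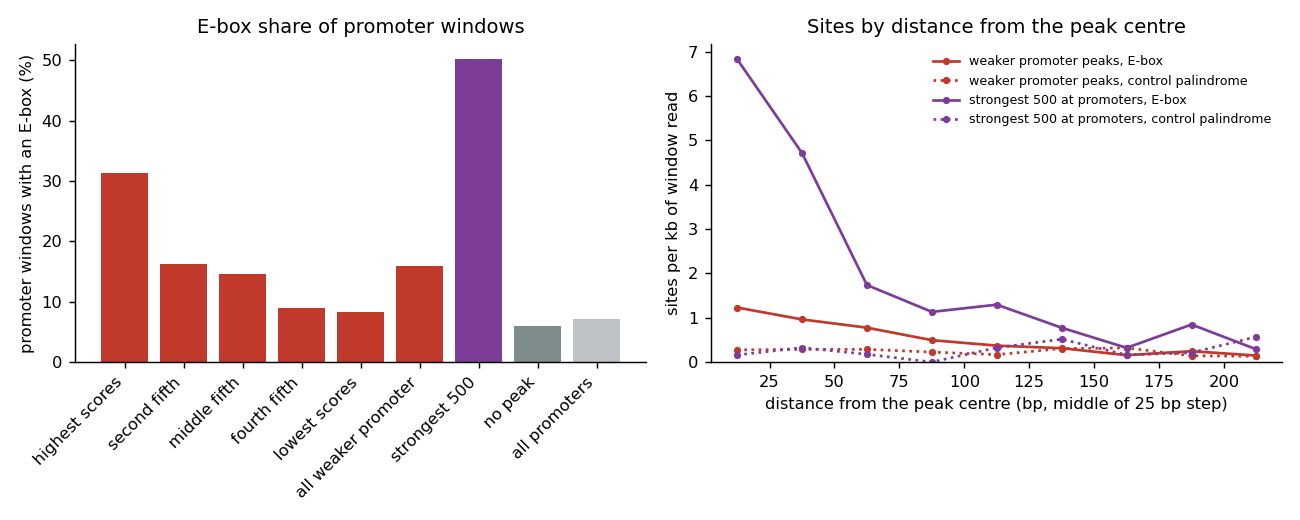
Left, share of RefSeq promoter windows (%) with the E-box, for weaker promoter peaks in 5 groups by peak score and together, the strongest 500 peaks at promoters, promoters of genes tested in WAT without a peak and all promoters. Right, E-box and control palindrome sites per kb of window read, by distance in bp from the peak centre. The share falls over the weaker peaks to 8.26% in the lowest group, and the E-box density at weaker peaks is 1.23 per kb within 25 bp and 0.146 at 200 to 225 bp, against 0.274 and 0.130 for the control.

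By the rule the weaker promoter peaks lie within 1000 bp of a start, and their median signal was alike in the ChIP libraries. The deposited ChIP signal is in tags per library scaled to 10000000 tags. Weaker promoter peaks had a median of 6.17 tags in library 1 and 6.50 in library 2, and the strongest 500 at promoters had 18.2 and 18.8. Single weaker peaks were noisy. The Spearman correlation between the libraries was 0.458, against 0.647 at the strongest promoter peaks. The median absolute log2 ratio of the libraries was 0.371, against 0.206. In 472 of 5640 (8.37%) the libraries differed by over 2-fold, against 2 of 355 (0.563%) of the strongest promoter peaks. At the limit, the first peaks outside the 500 were those of Klf13, Cpeb2, Acvr1b, Cbfa2t2, Papd7 (Tent4a in the RNA table) and Pdcd11, all with a score of 14.6, and the last promoter peaks inside were those of Cul5, Senp8 and Rnf14, also at 14.6. The limit therefore cuts through a tie of 16 peaks. The median distance to the start was 99 bp without regard to side, 60.3% of peaks lay upstream, and 85.5% carried the annotation promoter-TSS, 5.76% intron and 4.41% 5′ UTR. Of the 5640 peaks 5415 were assigned to protein-coding genes, and 108 genes had more than 1 weaker promoter peak.

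Genes with a weaker promoter peak had higher RNA levels than genes without a peak. On the TPM scale, which divides by transcript length, their median level in WAT was 6.04, against 8.07 for genes of the strongest promoter peaks and 4.00 for genes without a peak in the deposited table. In BAT the medians were 4.52, 6.66 and 1.43 TPM. The per-library median ran from 3.90 to 8.31 TPM in WAT for genes with a weaker promoter peak and from 2.48 to 5.51 for genes without one, so these ranges overlap. In BAT they ran from 3.19 to 5.81 and from 1.09 to 2.05, and do not overlap. Of the 5509 genes, 5009 passed the count filter in WAT and 5010 in BAT. In WAT, 1.60% of genes without a peak were called rhythmic in the lowest of 10 bins of mean CPM and 31.7% in the highest. In BAT these shares were 2.18% and 15.6%. With a weaker promoter peak the BAT share was 0.505% in the lowest bin, 9.20% in bin 4 and 9.78% in the highest. The share of genes without a peak was weighted over these bins to the levels of the genes with a weaker promoter peak.

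In WAT, 550 of the 5009 genes with a weaker promoter peak were called rhythmic, or 10.98% (95% Wilson interval 10.1% to 11.9%), against 9.90% of all 12703 genes tested. A call is an adjusted p under 0.05 for a 24 h cosine and sine in edgeR's quasi-likelihood test with Benjamini-Hochberg adjustment. Of genes without a peak 9.03% were called, and 12.8% after weighting to the same levels. The weighted share was the larger in 9 of 10 bins, and the difference was −1.87 percentage points, with a counting interval of −3.06 to −0.66 that takes genes as independent, which they are not. Genes of the strongest promoter peaks were called in 33 of 324 cases (10.2%). The peak-to-trough difference of called genes had a median of 1.55 on the log2 scale with a weaker promoter peak and 1.85 without a peak. The count rests on single libraries. It fell to 362 without library 2 of ZT1, 282 and 240 without libraries 1 and 2 of ZT5, 365 and 199 without libraries 1 and 2 of ZT9, 216 and 207 without libraries 1 and 3 of ZT17, and 193 and 209 without libraries 1 and 3 of ZT21, and was 1038 without library 3 of ZT9.

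Peak times of the WAT calls gathered in the dark phase, taken as ZT12 to ZT24 by convention. Of the 550 genes, 135 peaked in the 4 h window around ZT17 and 310 in that around ZT21, together 80.9%. The same windows held 20 of 33 (60.6%) of the strongest promoter peaks' genes and 62.1% of the called genes without a peak. Only 8 genes (1.45%) peaked around ZT13. The median log2 deviation of all tested genes with a weaker promoter peak from their own means did not follow these windows. It averaged 0.15 at ZT1, −0.04 at ZT5, 0.03 at ZT9, 0.02 at ZT13, 0.10 at ZT17 and 0.05 at ZT21, and that of genes without a peak 0.24, 0.05, 0.09, 0.10, −0.05 and −0.09 at the same times. The ribosomal loci held a mean of 9.57% of counts at ZT1, 40.5% at ZT5, 30.1% at ZT9, 19.1% at ZT13, 30.7% at ZT17 and 18.7% at ZT21. Mitochondrial genes held a mean of 17.2% of counts at ZT1, 10.3% at ZT5, 15.1% at ZT9, 20.005% at ZT13, 6.05% at ZT17 and 4.12% at ZT21, and so were lowest in the windows that hold most peak times. The part of either in the calls was not tested. Without the WAT libraries in which they hold over 50%, 1097 of 5118 genes (21.4%) were called, against a weighted 27.3% without a peak.

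**Figure D2:**
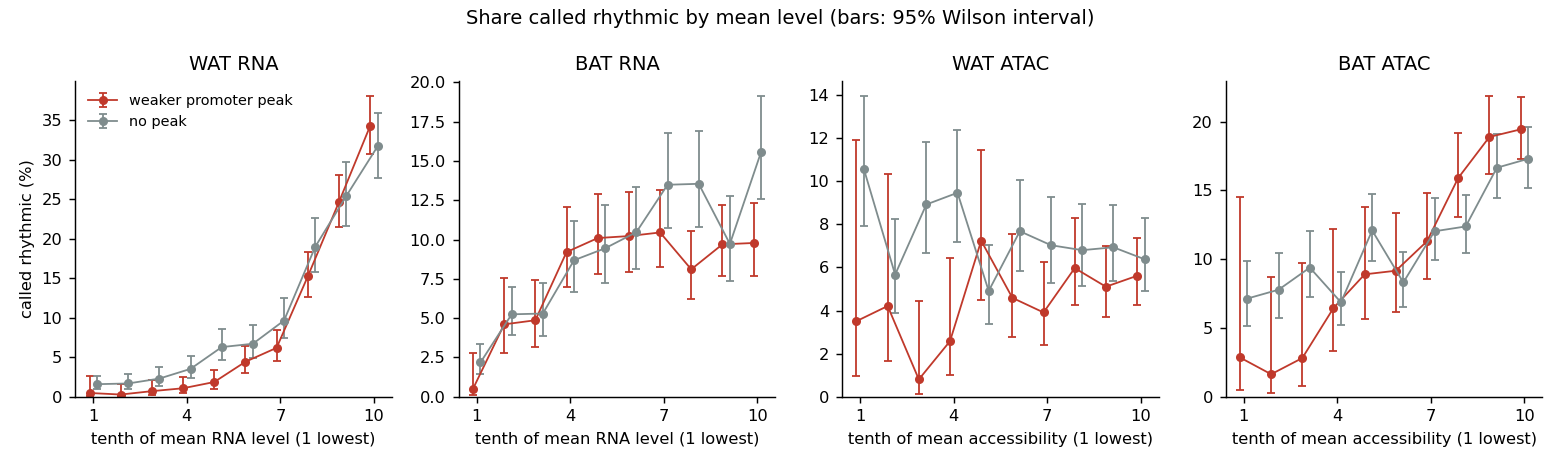
Share of features called rhythmic (%) in 10 bins of mean level, for weaker promoter peaks and for genes or promoter regions without a peak, with 95% Wilson intervals as bars, in WAT RNA, BAT RNA, WAT ATAC and BAT ATAC. The WAT RNA share climbs with level to 34.3% with a weaker promoter peak and 31.7% without a peak in the highest bin.

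The WAT calls with the lowest p included genes of lipid storage and sugar use. Angptl8, whose secreted product restrains lipoprotein lipase after feeding, had 7.45, 10.5 and 12.3 CPM at ZT17 and 16.8, 3.39 and 15.7 at ZT21, against 0.279, 0 and 1.70 at ZT5 and 0.550, 0.673 and 0 at ZT9. All 6 libraries of ZT17 and ZT21 lay above all 6 of ZT5 and ZT9, and the fitted peak-to-trough difference was 5.21 ± 0.70 (SE) on the log2 scale (adjusted p = 0.000671 in edgeR). Counts of this gene are low, and Angptl8 lies within Dock6, whose reads could be shared if counting did not use strand. Its peak, at chr9:21835201-21835413 and 203 bp upstream of the start, was near the low end of the scores at 4.28. Tkt, the transketolase of the pentose phosphate pathway, had 2981, 1963 and 6023 CPM at ZT21 and 355, 319 and 412 at ZT5, a difference of 3.32 ± 0.46 (adjusted p = 0.000813). Plin2, a coat protein of lipid droplets, had 788, 383 and 964 CPM at ZT21 and 72.9, 93.7 and 135 at ZT5, a difference of 2.73 ± 0.39 (adjusted p = 0.00119). In each of the 3 genes the libraries of ZT21 all lay above those of ZT5.

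Ppp1r3c, which brings protein phosphatase to glycogen and whose E-box is printed earlier, had 136, 44.3 and 114 CPM at ZT21 and 16.8, 14.3 and 22.0 at ZT5, with no overlap (difference 2.43 ± 0.34, adjusted p = 0.000813). Leo1, a subunit of the PAF1 elongation complex, led the list by p, with 76.3, 46.1 and 85.7 CPM at ZT21 and 8.25, 5.22 and 13.2 at ZT9 (difference 3.19 ± 0.38, adjusted p = 0.000253). The other genes of the first 10 by p were Mid1ip1, which activates acetyl-CoA carboxylase, the long RNA 1700056E22Rik, the thiolase gene Acat2, Hexim1, an inhibitor of transcription elongation, and Gcat, an enzyme of threonine breakdown. Their differences ran from 1.93 at Acat2 to 3.10 at 1700056E22Rik, and they peaked between ZT17.4 and ZT20.99. All 10 were called under each of 25 other settings.

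In BAT, 430 of 5010 genes with a weaker promoter peak were called rhythmic, or 8.58% (7.84% to 9.39%), against 9.17% of all 12394 genes tested. Of genes without a peak 8.47% were called, and 10.4% after weighting to the same levels, a difference of −1.82 percentage points with a counting interval of −2.91 to −0.72. Genes of the strongest promoter peaks were called in 55 of 327 cases (16.8%). The weighted share without a peak was larger in 8 of 10 bins. Scaling to library totals in place of TMM gave 993 calls, and the difference was then 0.78 percentage points with the other sign. The count was 163 and 172 without libraries 2 and 3 of ZT1, 224 and 243 without libraries 2 and 3 of ZT9, 265 and 185 without libraries 2 and 3 of ZT13, 254 without library 2 of ZT17, 214 and 265 without libraries 1 and 3 of ZT21, and 1436 without library 2 of ZT21.

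Peak times in BAT fell around ZT1, with 142 of 430 genes (33.0%), and around ZT13, with 117 (27.2%). Among called genes without a peak these windows held 31.9% and 31.5%. The windows around ZT5, which includes the ChIP time of ZT4, and around ZT9 held 21.2% of the genes with a weaker promoter peak. They held 40.0% of those of the strongest promoter peaks and 17.7% of those without a peak. The peak-to-trough difference of called genes had a median of 0.86 on the log2 scale with a weaker promoter peak and 1.00 without a peak.

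**Figure D3:**
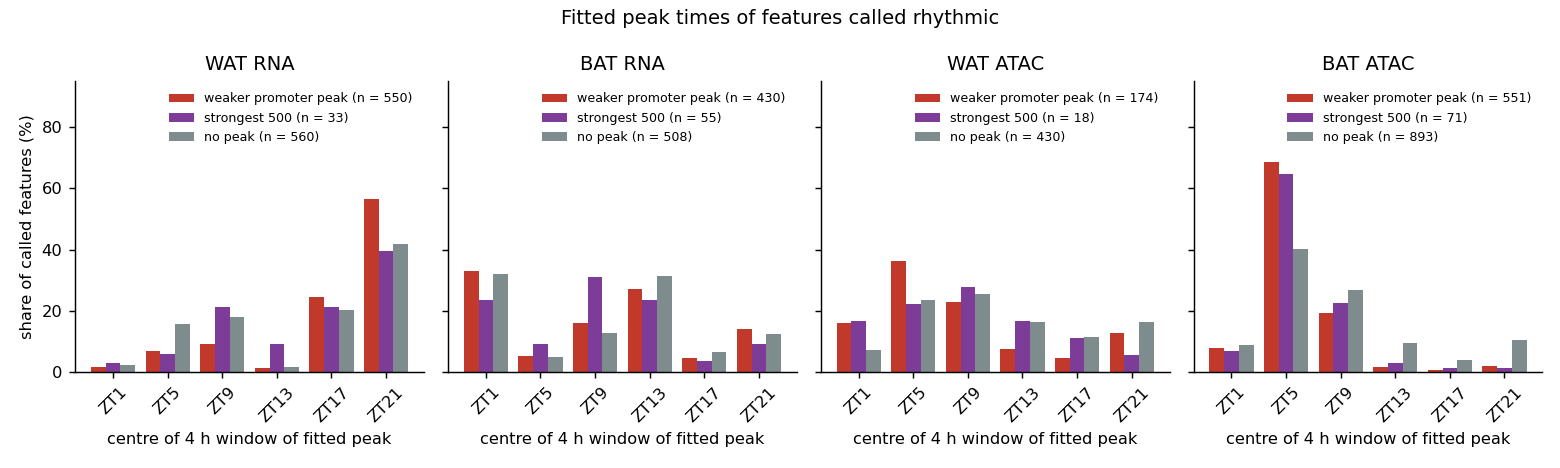
Share (%) of features called rhythmic whose fitted peak falls in each 4 h window, for weaker promoter peaks, the strongest 500 peaks at promoters and features without a peak, in WAT RNA, BAT RNA, WAT ATAC and BAT ATAC. For weaker promoter peaks the highest bar is at ZT21 in WAT RNA (56.4%), at ZT1 in BAT RNA (33.0%) and at ZT5 in both ATAC panels (36.2% in WAT and 68.4% in BAT).

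The clock genes among the BAT calls behaved as separate cases. Arntl itself has a weaker promoter peak, scored 6.5 at chr7:113207538-113207750, 179 bp downstream of the start. In BAT it had 10.7, 12.6 and 6.81 CPM at ZT1 and 0.857, 0 and 0 at ZT9, a difference of 4.92 ± 0.54 with a peak at ZT0.0548 (adjusted p = 0.000131 in edgeR). In WAT it ranged from 0 to 7.64 CPM over 18 libraries and was not called (adjusted p = 0.439). Usp2, a deubiquitinase and a known clock output, had 173, 135 and 229 CPM at ZT13 in BAT and 41.1, 41.0 and 41.4 at ZT1, without overlap (difference 2.08 ± 0.21, adjusted p = 4.31e-05). Rora, a receptor that activates Arntl, was called in BAT (0.71 ± 0.13, adjusted p = 0.00898) and not in WAT (adjusted p = 0.555), and the BAT call was lost with time as a factor and with library totals, where the highest adjusted p was 0.221. Wee1, a kinase that holds back mitosis, reached an adjusted p of 0.0482 in BAT, which 19 of 23 other settings moved past 0.05. Csnk1d, the gene of a casein kinase that acts on the Period proteins, was not called in either depot (adjusted p = 0.175 in WAT and 0.194 in BAT). Of 20 core clock genes 4 had a weaker promoter peak and 10 had a peak among the strongest 500 at promoters.

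Outside the clock, the lowest p in BAT was that of Dapk1, the gene of death-associated protein kinase, with 42.2, 33.4 and 38.5 CPM at ZT1 and 10.3 and 9.87 CPM at ZT17 (difference 2.04 ± 0.17, adjusted p = 1.37e-05). Gramd1a, which encodes a carrier of sterols between membranes, ran the other way, with 60.4, 71.6 and 77.0 CPM at ZT13 and 19.4, 16.6 and 21.02 at ZT1 (difference 1.65 ± 0.16, adjusted p = 4.15e-05). The libraries of the times named did not overlap for either gene. Angptl4, a lipoprotein lipase inhibitor of the fasted state, peaked at ZT2.79 (difference 2.14 ± 0.26, adjusted p = 0.000345), and Nrg4, which encodes a growth factor secreted by brown fat, at ZT14.0 (difference 1.00 ± 0.12, adjusted p = 0.000384). Dtx4, Mtss1, Cdr2 and Ttc28 completed the first 10 by p, with differences from 1.05 at Mtss1 to 3.56 at Dtx4. All 10 were called under each of 23 other settings.

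**Figure D4:**
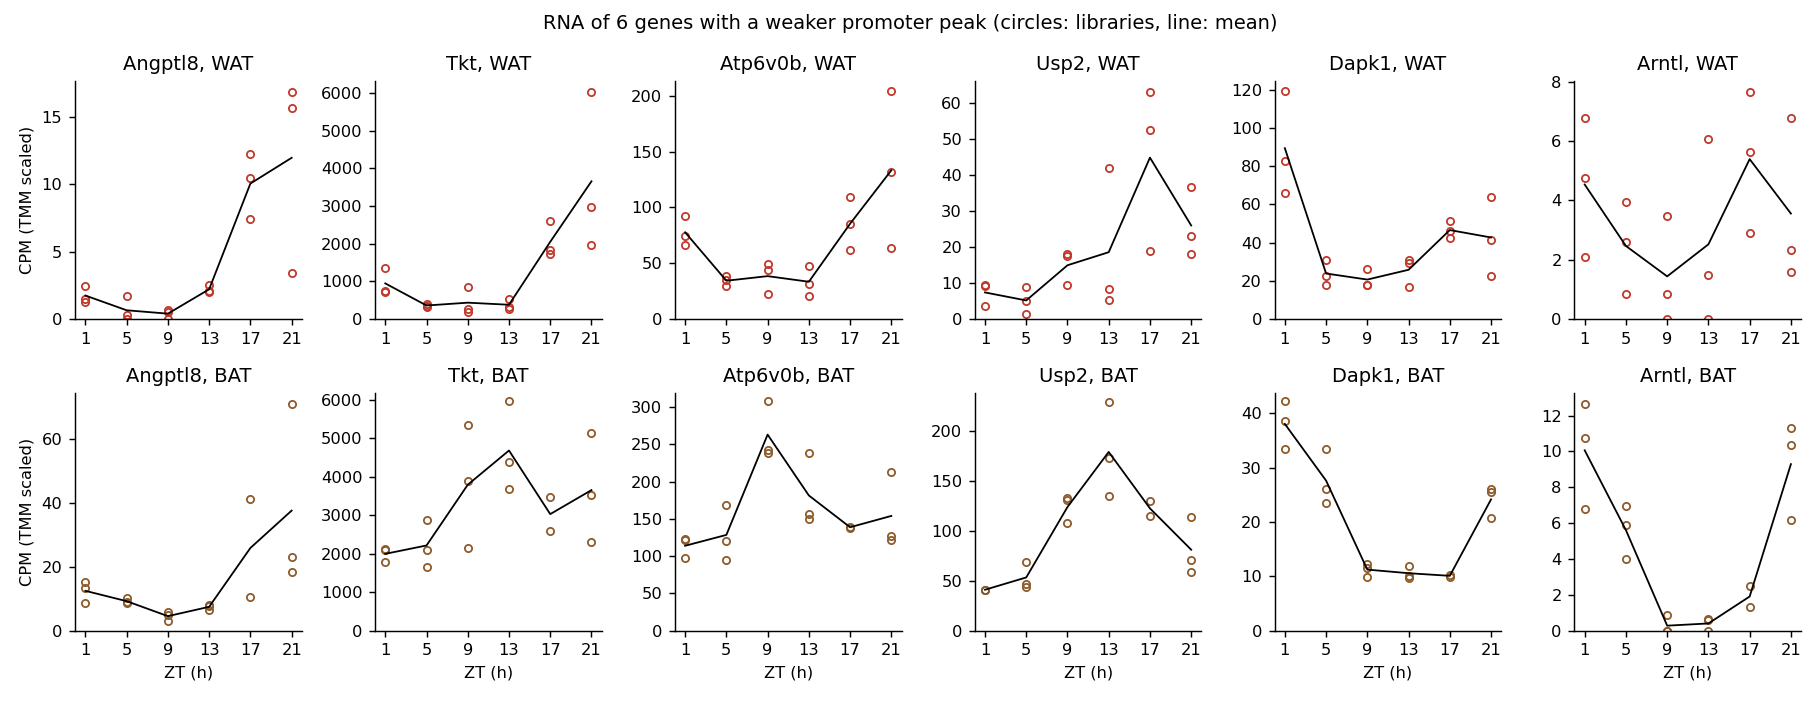
RNA of 6 genes with a weaker promoter peak in WAT (top) and BAT (bottom), in TMM-scaled CPM against ZT in hours, with circles for libraries and a line for the mean of 2 or 3 libraries. Angptl8, Tkt and Atp6v0b are highest at ZT21 in WAT, whereas Tkt is highest at ZT13 and Atp6v0b at ZT9 in BAT, and Arntl is highest at ZT1 in BAT.

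The rhythm differed between the depots for 677 of 4860 genes with a weaker promoter peak, or 13.9%, against 13.1% of all 11065 genes tested, by edgeR's test of the depot-specific cosine and sine terms. The share without a peak was 12.6%, and 14.9% after weighting, a difference of −1.003 percentage points with a counting interval of −2.39 to 0.39. The difference curve, WAT minus BAT, peaked around ZT21 for 424 of the 677 genes (62.6%) and for 54.6% of the genes without a peak. Elovl6, which lengthens fatty acids, had 50.5, 34.2 and 66.9 CPM at ZT21 in WAT against 12.8, 3.90 and 7.35 at ZT5. In BAT it had 50.4, 52.7 and 62.5 CPM at ZT9 and 46.3, 64.7 and 54.1 at ZT13, against 30.9, 28.5 and 37.8 at ZT1. Its difference curve had an amplitude of 1.501 ± 0.23 on the log2 scale (adjusted p = 0.00447). Atp6v0b, with its pair of E-boxes, had 132, 63.6 and 204 CPM at ZT21 and 29.4 to 38.8 at ZT5 in WAT, and in BAT 242, 238 and 309 at ZT9 against 97.5 to 123 at ZT1. Its difference curve had an amplitude of 1.33 ± 0.21 (adjusted p = 0.00447), as did that of Gcat at 1.33 ± 0.22. Of 4860 genes with a weaker promoter peak tested in both depots, 55 were called in both. That is 10.1% of their 544 WAT calls and 13.0% of their 422 BAT calls. Of 4910 genes without a peak 56 were called in both, or 11.6% of 483 WAT calls and 12.4% of 451 BAT calls. Peak times in WAT and BAT lay within 4 h for 29 of the 55 genes and 22 of the 56. The count of 677 was 409 and 1380 without WAT libraries 2 and 3 of ZT9, 365 and 279 without WAT libraries 1 and 3 of ZT21, 322 and 263 without BAT libraries 2 and 3 of ZT9, and 369 and 311 without BAT libraries 1 and 3 of ZT21.

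The share of genes with a weaker promoter peak differed between the gene lists, which were chosen with results known. Such peaks stood at 39.4% of all genes tested in WAT RNA. They stood at 75.0% of 24 tested genes of the ER chaperone and unfolded protein response list, 64.9% of 37 splicing factors, 61.3% of 80 cytosolic ribosomal proteins, 60.0% of 15 heat shock genes, 59.4% of 64 translation factors, 57.9% of 19 insulin signalling genes and 57.4% of 47 proteasome genes. The share was 46.7% of 30 autophagy and lysosome genes and 43.6% of 78 respiratory chain genes. It was 27.8% of 18 lipolysis and lipid droplet genes, 22.2% of 18 core clock genes and 14.3% of the thermogenesis and creatine cycle list, or 2 of 14. These shares were not tested.

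Called genes of the synthesis and breakdown lists in WAT peaked mostly in the dark phase, and in each list but fatty acid and triglyceride synthesis most genes with a weaker promoter peak did not pass the test. The counts stand against 9.90% of all genes tested and 10.98% of all genes with a weaker promoter peak, and against 34.3% of genes with a weaker promoter peak in the highest bin of mean level. No list was tested as a set. Of the fatty acid and triglyceride synthesis genes with a weaker promoter peak 7 of 10 were called, among them Elovl6, Fasn, the fatty acid synthase (2.39 ± 0.43, adjusted p = 0.00526), and Dgat1, the last enzyme of triglyceride synthesis (2.13 ± 0.39, adjusted p = 0.006). The median difference of the 10 genes was 1.64, against 0.85 over all genes with a weaker promoter peak. Of the proteasome genes 12 of 27 were called, among them Psmc6, an ATPase of the cap (1.54 ± 0.31, adjusted p = 0.0103), and Psmg1, an assembly chaperone (1.90 ± 0.37, adjusted p = 0.00808). Of the mitochondrial ribosomal proteins 13 of 40 were called, with Mrps15 at 1.86 ± 0.28 (adjusted p = 0.00175) and Mrpl12 at 2.30 ± 0.42 (adjusted p = 0.00526). Translation factors gave 12 of 38, splicing factors 8 of 24, cytosolic ribosomal proteins 10 of 49 and the respiratory chain and ATP synthase 7 of 34. Every called gene of these lists peaked between ZT12 and ZT24, except 2 translation factors and 1 cytosolic ribosomal protein. Ribosomal protein genes have many near-identical pseudogenes, and their counts are uncertain.

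Genes of the same lists without a weaker promoter peak were called as well. The counts were 8 of 14 for fatty acid and triglyceride synthesis, 10 of 20 for the proteasome, 9 of 38 for mitochondrial ribosomal proteins, 11 of 31 for cytosolic ribosomal proteins, 9 of 44 for the respiratory chain, 5 of 26 for translation factors and 2 of 13 for splicing factors. By the same edgeR test in BAT, the genes with a weaker promoter peak gave 1 of 27 for the proteasome and 0 of 40 for mitochondrial ribosomal proteins. They gave 2 of 49 for cytosolic ribosomal proteins and 3 of 38 for translation factors. The respiratory chain gave 10 of 34 and fatty acid and triglyceride synthesis 4 of 10. Of all genes tested in BAT 9.17% were called. Proteasome, mitochondrial ribosomal and cytosolic ribosomal genes without such a peak gave 1 of 20, 2 of 38 and 1 of 32. Translation factors, the respiratory chain and fatty acid and triglyceride synthesis gave 1 of 28, 11 of 44 and 2 of 14 without one. With such a peak, 16 proteasome, 13 mitochondrial ribosomal, 17 cytosolic ribosomal and 16 translation factor genes had an unadjusted p under 0.05. DESeq2 called 8, 4, 8 and 8. Differences in rhythm between the depots were called for 11 of 27 proteasome genes, 13 of 40 mitochondrial ribosomal protein genes and 9 of 38 translation factors with a weaker promoter peak, and for 6 of 20, 11 of 38 and 6 of 26 genes of these lists without one, against 13.1% of all genes tested. Single examples of the remaining lists called in WAT were the stress regulator Atf4 (1.43 ± 0.29, adjusted p = 0.00925), the chaperone partner Bag3 (1.55 ± 0.31, adjusted p = 0.00977), the sterol enzyme Cyp51 (2.36 ± 0.45, adjusted p = 0.00734), the carnitine enzyme Cpt2 (1.74 ± 0.36, adjusted p = 0.0117) and Nr1h3, the oxysterol receptor LXR alpha (1.75 ± 0.35, adjusted p = 0.00976). Autophagy and lysosome genes with a weaker promoter peak gave 0 of 14 in WAT by edgeR, with 3 at an unadjusted p under 0.05 and 1 by DESeq2, and insulin signalling genes gave 0 of 11, with 2 and 2. The ER chaperone list gave 3 of 18, heat shock 2 of 9, fatty acid oxidation 2 of 9, adipocyte transcription factors 1 of 9, vacuolar ATPase 1 of 8, cholesterol synthesis 1 of 7, glycolysis 1 of 10, lipolysis and lipid droplet 1 of 5 and NAD metabolism 1 of 5. Among the genes described, Angptl8, Gcat, Nrg4, Pfkfb2, Csnk1d, Nr1h3, Hspe1, Arntl, Atp6v0b, Plin2, Tkt, Leo1, Elovl6, Usp2, Dapk1, Acat2, Mtss1, Ttc28 and Rora overlap at least 1 other locus in RefSeq, and their counts are uncertain where counting did not use strand. Cathepsin D, Ctsd, whose E-box is printed earlier, had an adjusted p of 0.059.

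About 6 in 10 weaker promoter peaks lay over open chromatin of the NuTRAP nuclei, and few of these regions were rhythmic in WAT. In WAT 3480 peaks (61.7%) and in BAT 3587 (63.6%) overlapped an accessible region of 150 bp by at least 75 bp. Of all weaker promoter peaks 3284 did so in both depots and 1857 (32.9%) in neither. The share was near that of the strongest promoter peaks, at 63.9% in WAT and 68.5% in BAT. Weaker distal peaks gave 47.7% and 54.5%. In WAT 174 of 3480 regions at weaker promoter peaks were called rhythmic, or 5.00% (4.32% to 5.78%), against 15.8% of all 25050 regions, most of which are distal. Of promoter regions without a peak 7.26% were called, and 6.93% after weighting to the same mean accessibility. The difference was −1.93 percentage points with a counting interval of −2.88 to −0.94, and the share without a peak was larger in 9 of 10 bins. In BAT 551 of 3587 regions at weaker promoter peaks were called, or 15.4% (14.2% to 16.6%), against 18.9% of all 42572 regions. Promoter regions without a peak gave 11.9%, and 14.1% after weighting, a difference of 1.22 percentage points with a counting interval of −0.18 to 2.66. The strongest promoter peaks gave 18 of 227 regions (7.93%) in WAT and 71 of 243 (29.2%) in BAT. Without library 2 of ZT17 the BAT count was 346, and without library 1 or 3 of ZT5 the difference was −0.21 or −0.26.

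Called regions at weaker promoter peaks were most open in the first part of the day. In BAT 377 of 551 (68.4%) peaked around ZT5 and 107 (19.4%) around ZT9, against 40.2% and 26.9% of the called promoter regions without a peak. The strongest promoter peaks were alike, with 64.8% and 22.5% of their 71 called regions in these windows. Of 5775 called distal regions without a peak the same windows held 5.80% and 11.6%. The ChIP was done at ZT4. In WAT the windows around ZT5 and ZT9 together held 59.2% of 174 regions and 48.8% of the promoter regions without a peak. They held 50.0% of 18 regions at the strongest promoter peaks and 24.7% of distal regions without a peak. The amplitude was small. Called regions at weaker promoter peaks had a median peak-to-trough difference of 0.38 on the log2 scale in WAT and 0.29 in BAT. The whole set of regions moved in the same sense. In BAT these regions held 14.9% ± 0.126 (SD, n = 3) of all tags at ZT5 and 13.7% ± 0.228 at ZT17, and in WAT 20.05% ± 0.253 at ZT1 and 18.9% ± 0.137 at ZT17. The libraries of the times named did not overlap. Promoter regions without a peak moved likewise. In BAT their median log2 deviation averaged 0.06 at ZT5 and −0.04 at ZT17, against 0.08 and −0.06 at weaker promoter peaks.

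**Figure D5:**
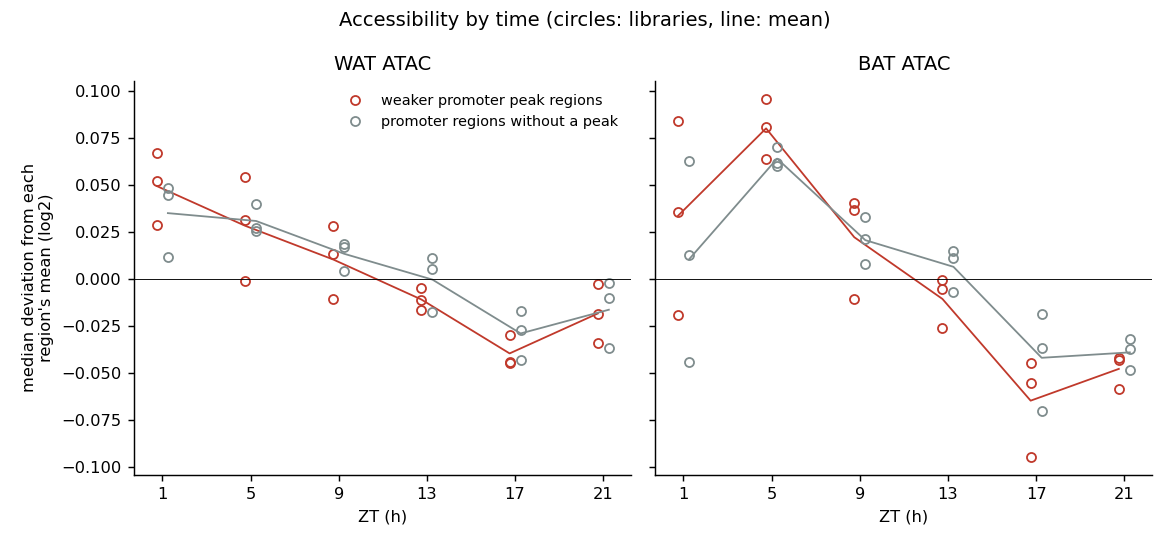
Median log2 deviation of accessible regions from their own means by ZT in hours, in WAT and BAT, for regions at weaker promoter peaks and promoter regions without a peak, with circles for libraries and lines for the mean of 3 libraries. Both sets of BAT regions are highest at ZT5, with means of 0.08 at weaker promoter peaks and 0.06 without a peak.

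The call share in BAT followed the score within the weaker promoter peaks. Over the 5 groups by score it was 20.8% in the highest, then 17.9%, 16.2% and 13.7%, and 8.36% in the lowest. Median log2 CPM of the regions fell alongside, with 5.54 in the highest and 4.70 in the lowest group, and its part was not tested. In WAT the shares were 6.32%, 5.46%, 3.88%, 5.17% and 4.17%. RNA calls in WAT had shares of 12.4% in the highest and 9.58% in the lowest group, and those in BAT 9.68% and 8.38%.

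The most rhythmic regions did not share one time. The region at the Angptl8 peak, chr9:21835277-21835427 in the WAT set, had 61.8, 67.8 and 73.9 CPM at ZT17 and 36.4, 39.2 and 33.6 at ZT9 in WAT (difference 0.87 ± 0.11, adjusted p = 8.17e-05 in edgeR). In BAT it had 52.7, 54.5 and 49.3 CPM at ZT17 and 37.4, 34.0 and 38.4 at ZT5 (difference 0.60 ± 0.08, adjusted p = 0.000132). It peaked near ZT19 in both depots, at ZT19.3 and ZT19.1, close to the RNA peaks at ZT18.9 in WAT and ZT20.5 in BAT. The region at the Fasn peak, chr11:120824115-120824265 and 357 bp downstream of the start, had 83.9, 103 and 113 CPM at ZT17 and 57.2 to 65.4 at ZT5 in WAT (difference 0.72 ± 0.10, adjusted p = 0.000111). The region at Mt2, a metallothionein, at chr8:94172603-94172753, peaked in the day in both depots, with 37.7, 38.4 and 34.1 CPM at ZT9 and 16.4, 20.4 and 24.7 at ZT21 in WAT (difference 1.01 ± 0.14, adjusted p = 0.000151), and with a difference of 1.21 ± 0.20 in BAT (adjusted p = 0.00124). Mt2 RNA was called in BAT, peaking at ZT10.4 (adjusted p = 0.00226), and not in WAT (adjusted p = 0.336).

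In BAT the lowest p belonged to the region at Ghitm, a protein of the inner mitochondrial membrane, at chr14:37135219-37135369. It had 73.7, 77.4 and 71.6 CPM at ZT9 and 47.7, 49.6 and 46.1 at ZT21 (difference 0.62 ± 0.07, adjusted p = 2.99e-05), while its RNA was not called (adjusted p = 0.146). The region at Pfkfb2, a regulator of glycolysis, at chr1:130715844-130715994, begins next to the E-box printed earlier, and had 37.7, 41.7 and 42.6 CPM at ZT9 and 25.6, 28.2 and 23.8 at ZT1 (difference 0.63 ± 0.09, adjusted p = 0.000543). The libraries of the times named did not overlap at either region. The region at Stc2, a stanniocalcin, was highest at ZT1 with 15.0, 13.5 and 14.3 CPM, against 4.86 to 6.10 at ZT13 (difference 1.42 ± 0.20, adjusted p = 0.000422). The remaining regions among the first 5 by p were those at Tenm4 and Fads3 in WAT and Slc22a5, a carnitine transporter, in BAT, with differences of 1.10, 0.46 and 0.26.

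Rhythm in accessibility and rhythm in RNA met at few of the same genes. Genes whose weaker-peak region was called in WAT had rhythmic RNA in 20 of 155 cases (12.9%), against 326 of 3028 (10.8%) whose region was not called. In BAT the shares were 65 of 514 (12.6%) and 221 of 2760 (8.01%), with median log2 CPM of RNA at 4.39 and 4.02. Of the genes called in both readouts 9 of 20 in WAT and 27 of 65 in BAT had peak times within 4 h. No share for genes without a peak stands beside these counts, which are a description only. Genes with CACGTG in the window had rhythmic RNA in 60 of 515 cases (11.7%) in WAT, against 305 of 2675 (11.4%) with a window without it. In BAT the counts were 58 of 522 (11.1%) and 208 of 2671 (7.79%). Accessible regions with the E-box were rhythmic in 16 of 414 cases (3.86%) in WAT and 81 of 449 (18.04%) in BAT, and those without it in 4.90% and 15.3%. None of these differences was tested.

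The authors' deposited tables of JTK_CYCLE results give fewer calls. At a q-value under 0.05, the authors' deposited table for WAT held 4 of 4999 genes with a weaker promoter peak and 17 of all 12541 genes. The authors' deposited table for BAT held 258 of 5173 genes with a weaker promoter peak (4.99%), 22 of 329 genes of the strongest promoter peaks (6.69%) and 251 of 7351 genes without a peak (3.41%).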

How the data were processed

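The authors deposited expected counts per gene for RNA-seq (estimated counts, as RSEM gives), TPM values with q-values from JTK_CYCLE, raw tag counts per accessible region of 150 bp, and a BMAL1 peak table with a peak score and a ChIP signal per library. Per the file headers, HOMER annotated the accessible regions and the peaks on mm10. The submitters' processing notes also name STAR 2.7.5, RSEM 1.3.0, Bowtie2 2.4.1, DESeq2 and limma, without roles, but no source says if the counting was strand-specific. The score and the signal of each peak are the authors' own values, and it is not given whether the peaks were called on pooled libraries. Neither the input library nor 1 count column that matches no listed sample entered any value computed here. The members and gene lists were chosen with earlier results of these data known.

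Expected counts were rounded. Each depot was fitted in edgeR 4.0.16 (R 4.3.3) with TMM scaling, the low-count filter of filterByExpr, and a cosine and sine of 24 h, tested by the quasi-likelihood F test with Benjamini-Hochberg adjustment over all features. A difference is the fitted peak-to-trough difference on the log2 scale. Its SE follows from the F value. The depots were compared by letting both terms depend on the depot. DESeq2 1.42.0 served as an alternative. Genes without a peak were weighted over 10 bins of mean level, and regions were matched to peaks with bedtools 2.31.1 at an overlap of at least 75 bp. The named genes are the 10 members of highest score and the 3 promoter peaks of lowest score inside the 500, the 10 rhythmic genes of smallest p and the 5 rhythmic regions of smallest p in each depot, every member of the clock lists except 1 that is not reported here, up to 3 members of each other list by WAT p, and the 3 of smallest p for the depot difference. All intervals cover counting error only.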

Additional observations from a re-analysis of the deposited data

Results flagged for a closer look

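The 24 h curve of RNA differed between WAT and BAT for 677 genes with a weaker promoter peak, by the test of the difference itself, taken on the depot-specific cosine and sine terms with edgeR's quasi-likelihood test with Benjamini-Hochberg adjustment. The named genes among them number 45. The adjusted p values of the named genes were lowest for 1700056E22Rik at 0.00447, Gcat at 0.00447, Atp6v0b at 0.00447, Elovl6 at 0.00447, Mrps15 at 0.00474, Tkt at 0.00474, Acat2 at 0.00601, Plin2 at 0.00657 and Leo1 at 0.00725. Next came Psmc6 at 0.0088, Mrps16 at 0.0102, Snrnp70 at 0.0109, Eef1e1 at 0.0115, Psmd14 at 0.0132, Mrpl12 at 0.0136, Dgat1 at 0.0138, Snrpe at 0.0142 and Ndufa5 at 0.0144. Further values were Psmg1 at 0.0145, Eif1b at 0.0151, Eif1ax at 0.0158, Cyp51 at 0.0159, Mt2 at 0.0179, Hspe1 at 0.0200, Gramd1a at 0.0205, Angptl8 at 0.0207 and Arntl at 0.0211. The list went on with Ndufb10 at 0.0214, Cdr2 at 0.0229, Mtss1 at 0.0232, Ndufb5 at 0.0241, Rps6kb1 at 0.0253, Atf4 at 0.0271, Ttc28 at 0.0275, Rbm3 at 0.0308 and Ctsd at 0.033. The largest adjusted p values under 0.05 were Nr1h3 at 0.0377, Bag3 at 0.0381, Hexim1 at 0.0382, Cpt2 at 0.0405, Dapk1 at 0.0451, Csnk1d at 0.0455, Mid1ip1 at 0.046, Pdha1 at 0.0467 and Rpl27a at 0.0485. The values nearest the threshold were unstable. Of 41 other settings, 31 lost the call of Dapk1, 26 that of Csnk1d, 26 that of Mid1ip1, 32 that of Pdha1 and 30 that of Rpl27a, mostly by leaving out 1 library, and between 12 and 21 lost those of Nr1h3, Bag3, Hexim1 and Cpt2. The amplitude of the difference curve was largest at Arntl, with 2.13 on the log2 scale, then at Tkt with 1.68 and at Angptl8 with 1.54, and smallest at Csnk1d with 0.42. WAT and BAT libraries also differed in depth and in the share of ribosomal loci, and the part of these differences was not tested.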

How the results depend on the processing

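The named calls were kept under every alternative for 32 of 48 genes in WAT RNA, 14 of 23 in BAT RNA, 22 of 45 in the depot difference, 5 of 9 regions in WAT ATAC and 11 of 18 in BAT ATAC, and no named call changed direction. Counts of calls moved far more, and the causes were not tested. DESeq2 called 859 genes with a weaker promoter peak in WAT RNA, 1000 in BAT RNA and 1233 in the depot difference. Library totals in place of TMM gave 343, 993 and 342. Leaving out the WAT libraries with over 50% ribosomal loci gave 1097 in WAT RNA and 1656 in the depot difference. Both of these alternatives were chosen after seeing the data. Time as a factor gave 219 in BAT RNA. The upper part of the peaks by score (above the median), which holds fewer features, gave 314, 226 and 366 genes and 96 and 337 regions in WAT and BAT ATAC. Requiring the whole accessible region inside the peak, likewise fewer, gave 77 and 205 regions.

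The share of calls at weaker promoter peaks minus the weighted share without a peak was −7.65 percentage points in WAT RNA without a filter on low counts, −3.83 with time as a factor, −3.41 by DESeq2 and −5.87 without the libraries rich in ribosomal loci. It was 1.95 without bins, the opposite sign, since levels are then not matched. In BAT RNA it was −3.16 without the filter, and turned positive at 0.78 with library totals and 0.11 without bins. In the depot difference it was −2.94 without the libraries rich in ribosomal loci. In WAT ATAC it was −0.91 with whole regions inside the peak. In BAT ATAC it turned negative at −2.12 with time as a factor, and was 3.29 in the upper part by score and 3.50 without bins.

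Without 1 library at a time, counts ran from 193 to 1038 in WAT RNA (difference −4.83 to −1.03), 163 to 1436 in BAT RNA (−3.58 to −0.36), 263 to 1380 in the depot difference (−2.29 to −0.46), 129 to 186 in WAT ATAC (−2.16 to −1.38) and 346 to 587 in BAT ATAC (−0.26 to 1.60, with −0.21 and −0.26 without libraries 1 and 3 of ZT5). A replicate block gave 596, 308 and 678 genes and 176 and 498 regions. Within each depot and readout, same-numbered libraries of different times did not correlate over 0.1 in every pair. The numbers are therefore not taken as pairs across times. The median correlation of same-numbered libraries was 0.03 in WAT RNA, 0.06 in BAT RNA, 0.04 in WAT ATAC and 0.003 in BAT ATAC. In that order 3 of 18, 5 of 17, 8 of 18 and 8 of 18 libraries correlated best with their own number. Whether WAT and BAT libraries of the same number and time came from the same animal is not given and was not examined. The depot comparison took them as independent. WAT RNA totals start at 1301522 counts, and what depth costs low genes was not measured.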
